A study of Bos taurus with 9 samples.

Results

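The genes described here encode the proteins of the cytosolic ribosome. They were taken by name from the deposited count table: every symbol made of RPL or RPS, digits and at most one trailing letter, with the stalk genes RPLP0, RPLP1 and RPLP2 and the small-subunit gene RPSA. Proteins of the mitochondrial ribosome and the RPS6K kinases were left out. The rule found 78 of 30641 genes and used no measured value. Of these, 32 belong to the small subunit, 43 to the large subunit and 3 to the P-stalk, and 76 of the 78 passed the filter on low counts, as did 14874 of all genes.

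A ribosome has a small subunit, which decodes the mRNA, and a large subunit, which joins the amino acids. The acidic P-stalk on the large subunit recruits the elongation factors. The mRNAs of these proteins carry a pyrimidine tract at their start through which growth signals, mainly mTOR, set their translation together, so that output of the proteins can move while the mRNA level does not. The endometrial epithelium, from which the studied cells are labelled as coming, lines the uterus and meets the early embryo.

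RNA was sequenced from cultured bovine endometrial epithelial cells in 9 libraries, 3 per group. DPPA3 mRNA cells received 500 ng of in vitro transcribed DPPA3 mRNA, which encodes a maternal chromatin-associated factor of the early embryo, with the reagent jetMESSENGER 24 hours after seeding. Reagent-alone cells received jetMESSENGER without mRNA at the same time, and untreated control cells received neither. Whether libraries of one group stem from different cultures or animals is not stated in the labels, and p-values here therefore cover only the spread among these libraries, which may be technical.

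Library totals ran between 3890134 (reagent alone 1) and 13258036 counts. DPPA3 had 126334, 213790 and 213192 counts in the DPPA3 mRNA libraries, against 0 in each reagent-alone library and 0, 2 and 1 in the untreated controls. The keratins KRT8 and KRT18 averaged 4247 and 1803 CPM (counts relative to library size, here without scaling) over all libraries, and the adhesion protein CDH1 averaged 51.9 CPM. The epithelial markers EPCAM, ESRP1 and GRHL2 had 37, 4 and 0 counts in total, while the stromal collagen COL1A1 averaged 10584 CPM. Of the other stromal markers, VIM averaged 1521 CPM and PDGFRB 11.6 CPM, and THY1 had 58 counts in total. The summed stromal markers spanned 29603 to 34857 CPM in DPPA3 mRNA cells, 28038 to 36167 CPM after reagent alone and 30542 to 46642 CPM in untreated controls. COL1A2 and COL3A1, at 13610 and 7272 CPM on average, held most of this sum together with COL1A1. In untreated control 1, scaled CPM was 18918 for COL1A1, but 89.3 for DCN and 21.1 for LUM, their lowest of all libraries. The part of the stromal markers in the results was not tested. Untreated control 1 stood apart from the other 8 libraries, as described below, and values against untreated control that moved most without it are given both ways.

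Together the 78 genes took between 2.44% and 3.34% of a library's counts. The share was 3.30%, 2.77% and 3.15% in the DPPA3 mRNA libraries, 3.20%, 2.59% and 3.34% with reagent alone, and 2.44%, 2.96% and 2.90% in the untreated controls. Each share rests on 124395 to 437319 counts, and its exact Clopper-Pearson 95% interval was narrow, from 3.18% to 3.22% in the shallowest library, covering counting error only. The group means were 3.07% ± 0.274 for DPPA3 mRNA, 3.04% ± 0.402 for reagent alone and 2.77% ± 0.284 for untreated control (SD, n = 3 each), and the ranges of all groups overlapped. In bulk libraries, fewer cells of a type and less RNA per cell cannot be told apart.

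The 16 ribosomal RNA genes in the table took 1.005% to 1.10% of counts in DPPA3 mRNA libraries, 0.926% to 0.986% with reagent alone and 1.14% to 1.56% in untreated controls. That share did not overlap between any of the groups, and its part in the results was not tested. Counts of small-subunit genes were 0.604, 0.669 and 0.622 times those of the large subunit and stalk with DPPA3 mRNA. The same ratio was 0.687, 0.679 and 0.641 with reagent alone and 0.624, 0.657 and 0.605 in untreated controls. Means were 0.632 ± 0.0337 for DPPA3 mRNA, 0.669 ± 0.0247 for reagent alone and 0.629 ± 0.0261 for untreated control, with overlapping ranges.

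**Figure D1:**
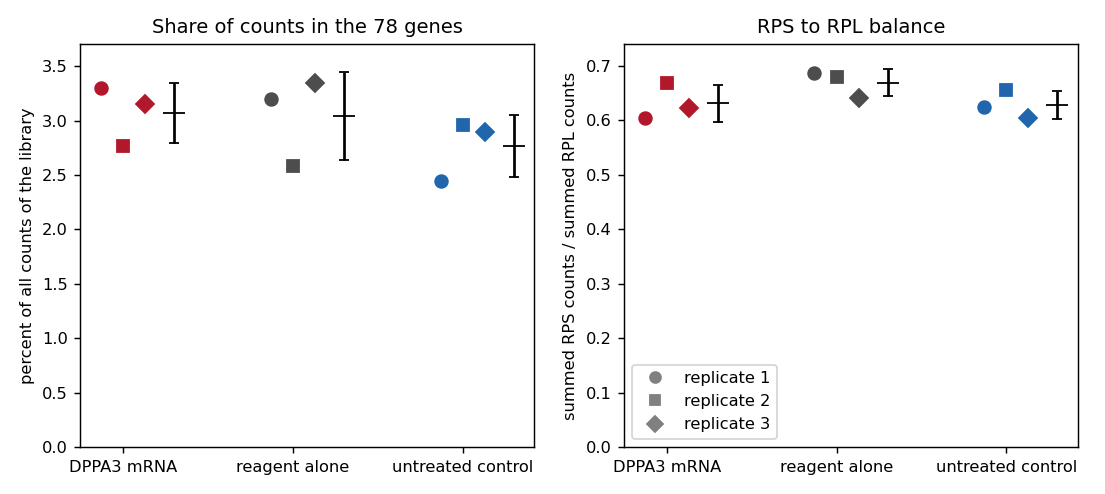
Left, percent of all counts of each library in the 78 genes; right, summed small-subunit counts divided by summed large-subunit and stalk counts. Symbols mark replicate numbers and bars the group mean ± SD (n = 3); the share runs from 2.44% in untreated control 1 to 3.34% in reagent alone 3, and no group is separate from another.

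Reads were spread unevenly over the genes. RPS2, a small-subunit protein at the mRNA entry side, took 6.30% of the reads of the whole set, RPLP0 took 5.69% and RPL13A took 4.77%. The 5 genes with most reads held 24.0% and the first 10 held 37.1%. These are shares of reads and not levels per transcript, since no coding length was at hand. At the low end, RPS27L averaged 6.24 CPM over the 9 libraries and RPL22 averaged 27.9 CPM. The order of the 76 genes by mean log2 CPM was close in all groups: Spearman's rho was 0.993 between DPPA3 mRNA and reagent alone, 0.980 between DPPA3 mRNA and untreated control, and 0.969 between reagent alone and untreated control (n = 76 genes, which share libraries and keep their lengths).

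A pair of large-subunit relatives failed the filter. RPL10L, a testis gene in mouse and human, had 1 count, in untreated control 3, and 0 in the other 8 libraries. RPL3L, a striated-muscle gene in mouse and human, had 6, 6 and 0 counts with DPPA3 mRNA, 1, 0 and 0 with reagent alone, and 0, 3 and 1 in untreated controls, too few to compare.

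DPPA3 mRNA was first set against reagent alone, which asks what the mRNA adds to the reagent. With edgeR's quasi-likelihood test and Benjamini-Hochberg adjustment over all genes, 0 of 76 genes differed at an adjusted p under 0.05, against 0.00672% of all genes, a single gene, DPPA3 itself. The smallest adjusted p of the set was 0.9998. At an unadjusted p under 0.05, 0 genes were higher and 0 lower, against 1.27% and 0.397% of all genes, and DESeq2 and limma voom also called 0 after adjustment. At the unadjusted level, limma voom gave 3 genes higher (3.95%, against 3.25% of all genes). Leaving out reagent alone 3 also gave 3 higher (3.95%, against 1.49%), leaving out DPPA3 mRNA 2 gave 2 higher (2.63%, against 1.02%), and leaving out reagent alone 2 gave 1 lower (1.32%, against 0.313%). The median log2 fold change was 0.05 (0.00 over all genes tested), and 49 of 76 values were positive (64.5%, against 50.4% of all genes). The median was -0.04 without reagent alone 2 and -0.01 without DPPA3 mRNA 1. Small-subunit genes had a median of -0.00, large-subunit genes 0.07 and the stalk genes 0.18. A miss at this threshold does not show equal levels, but for 75 of 76 genes (98.7%, against 65.7% of all genes) the 95% interval of the fold change stayed within 2-fold either way. Interval width follows the SE, whose median was 0.191 in the set and 0.273 over all genes. Such shares, here and below, therefore do not by themselves show steadier levels in the set.

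The stalk genes come first among the members. RPLP0, the scaffold of the stalk, measured 1997, 1539 and 1727 CPM with DPPA3 mRNA, 1379, 1496 and 1784 CPM after reagent alone, and 1592, 1624 and 1719 CPM in untreated controls. DPPA3 mRNA 1 was the highest library and reagent alone 1 the lowest, and the groups overlapped. The log2 fold change between DPPA3 mRNA and reagent alone was 0.18 ± 0.14 (SE), with a 95% interval of -0.13 to 0.49. RPLP1, one of the acidic proteins bound to RPLP0, measured 1123, 981 and 1058 CPM with DPPA3 mRNA, 840, 823 and 1124 CPM after reagent alone, and 822, 1001 and 902 CPM in untreated controls. Reagent alone 3 was as high as the highest DPPA3 mRNA library. RPLP2, the partner of RPLP1, measured 1071, 640 and 917 CPM with DPPA3 mRNA, 605, 622 and 893 CPM after reagent alone, and 983, 734 and 1009 CPM in untreated controls. For RPLP2 the second library was the lowest of its group with DPPA3 mRNA and in the untreated controls, and all groups overlapped. Its log2 fold change was 0.31 ± 0.21 (SE; 95% interval -0.15 to 0.76) between DPPA3 mRNA and reagent alone, and -0.36 ± 0.21 (-0.82 to 0.09) for reagent alone against untreated control.

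The highest fold change of the set in this comparison was that of RPL32, a large-subunit protein, at 0.32 ± 0.18 (SE; 95% interval -0.07 to 0.72; unadjusted p = 0.102, adjusted p = 0.9998 in edgeR). RPL32 measured 198, 140 and 195 CPM with DPPA3 mRNA, 118, 129 and 178 CPM after reagent alone, and 144, 143 and 146 CPM in untreated controls. The reagent-alone and DPPA3 mRNA libraries overlapped, and the untreated controls lay inside the range of each. Among the genes, RPS9 of the small-subunit body was the single one whose libraries did not overlap between DPPA3 mRNA and reagent alone (1.32% of the set higher, against 4.91% of all genes; 0 lower, against 3.99%). RPS9 measured 84.1, 84.0 and 86.3 CPM with DPPA3 mRNA, 60.3, 79.2 and 76.8 CPM after reagent alone, and 84.6, 80.7 and 70.1 CPM in untreated controls. Its log2 fold change was 0.23 ± 0.15 (SE; 95% interval -0.10 to 0.56), and its DPPA3 mRNA and untreated control values overlapped.

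At the other end stood RPS27L, a relative of RPS27 that p53 induces in human cells, at -0.25 ± 0.60 (SE), the gene with the widest interval, -1.55 to 1.05. The value was -0.69 without DPPA3 mRNA 2 and -0.05 without DPPA3 mRNA 3. RPS27L measured 5.13, 10.4 and 4.84 CPM with DPPA3 mRNA, 4.48, 9.70 and 9.37 CPM after reagent alone, and 0.806, 9.20 and 2.25 CPM in untreated controls. Its second library was high in every group, and the groups overlapped.

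Genes of the interferon response, which foreign RNA can set off, were measured in the same libraries. Between DPPA3 mRNA and reagent alone, edgeR called 0 of 12 tested (smallest adjusted p = 0.312), against 0.00672% of all genes. All 12 were higher at an unadjusted p under 0.05 (against 1.27% of all genes), with a median log2 fold change of 3.90. The list was chosen with earlier results of these data known, so this count is a description and not a test. With at most 1.02 CPM elsewhere, RSAD2 passed the low-count filter through the DPPA3 mRNA libraries, where it had 8.82, 225 and 7.21 CPM. Over the 18 alternative fits, the adjusted p of IFITM1 in this comparison ran from 1.3e-07 to 0.99998. That of OAS1X ran from 4.6e-17 to 0.99998, so calls in this list depended on the fit. Against untreated control, DPPA3 mRNA had 1 of the 12 called, IFITM1 (against 0.0134% of all genes). The mean log2(CPM + 1) of the 12 genes was 3.63, 7.14 and 4.66 with DPPA3 mRNA, against 2.09, 2.25 and 3.04 with reagent alone and 2.25, 2.45 and 2.70 in untreated controls. DPPA3 mRNA 2, the library highest for this list, had the lowest ribosomal protein share of its group, 2.77%. Reagent alone 3, the highest of its group for the list at 3.04, had the highest share of its group, 3.34%, and untreated control 1, the lowest of its group for the list, had the lowest share, 2.44%. Whether these are tied was not tested.

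DPPA3 mRNA against untreated control adds the effect of the reagent, and it shares the untreated libraries with the next comparison. Again 0 of 76 genes were called by edgeR, against 0.0134% of all genes, which were DPPA3 and IFITM1 (adjusted p = 0.0372 for IFITM1, and 3.5e-11 to 0.264 over the alternatives run). DESeq2 and limma voom also called 0 of the set, and the smallest adjusted p was 0.852. At an unadjusted p under 0.05, 1 gene was higher, RPS29 (1.32%, against 2.09% of all genes), and 0 were lower (against 1.82%). With the replicate number as a block, 11 genes were higher and 1 lower at that level (14.5% and 1.32%, against 5.40% and 3.95% of all genes), and 0 were called. The median log2 fold change was 0.12 (0.00 over all genes), with 55 of 76 values positive (72.4%, against 50.2%). Without untreated control 2, 22 genes were higher at an unadjusted p under 0.05 (28.9%, against 10.5% of all genes). Values ran between -0.31 for RPS19 and 0.69 for RPS27L, which stood at 0.25 without untreated control 1 and at 2.06 without untreated control 2. Medians were 0.10 for the small subunit, 0.14 for the large subunit and 0.09 for the stalk, and 68 of 76 intervals (89.5%, against 60.5%) lay within 2-fold.

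RPS29, a small zinc-binding protein of the small-subunit head, measured 82.3, 80.8 and 92.6 CPM with DPPA3 mRNA, 97.9, 79.2 and 97.8 CPM after reagent alone, and 48.7, 73.3 and 62.1 CPM in untreated controls. Every untreated library was lower than every treated one, while the DPPA3 mRNA and reagent-alone libraries overlapped. The log2 fold change was 0.47 ± 0.17 (SE; 95% interval 0.10 to 0.85; unadjusted p = 0.0176, adjusted p = 0.852 in edgeR) for DPPA3 mRNA against untreated control. It was 0.57 ± 0.17 (0.20 to 0.95; unadjusted p = 0.00577, adjusted p = 0.466) for reagent alone against untreated control. Without untreated control 1, these values were 0.34 and 0.44.

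No overlap between DPPA3 mRNA and untreated control was seen for 5 genes, all higher with DPPA3 mRNA: RPS29 and the large-subunit genes RPL14, RPL21, RPL27 and RPL38 (6.58%, against 4.24% of all genes; 0 lower, against 3.86%). RPL14 measured 262, 245 and 256 CPM with DPPA3 mRNA, against 169, 238 and 216 CPM in untreated controls, a log2 fold change of 0.29 ± 0.16 (SE), or 0.17 without untreated control 1. RPL38, which in mouse is needed for translation of some Hox mRNAs, measured 54.4, 52.4 and 48.6 CPM with DPPA3 mRNA and 90.6, 35.1 and 48.3 CPM after reagent alone, against 40.9, 40.2 and 41.3 CPM in untreated controls. The reagent-alone libraries of RPL38 spanned the other groups, and its fitted log2 fold change of DPPA3 mRNA over untreated control was 0.35 ± 0.27 (95% interval -0.23 to 0.92).

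For reagent alone against untreated control, edgeR called 0 of 76 genes, against 0.0% of all genes, and DESeq2 and limma voom called 0 of the set. At an unadjusted p under 0.05, 5 genes were higher (6.58%, against 4.23% of all genes) and 0 lower (against 5.96%). The smallest adjusted p was 0.466. Values ran between -0.39 for RPL18 and 0.94 for RPS27L with a median of 0.09 (-0.01 over all genes). Without untreated control 1, RPL18 stood at -0.08 and RPS27L at 0.52, and RPS27L stood at 2.31 without untreated control 2. Of all values, 45 of 76 were positive (59.2%, against 49.2%). The set's median was 0.00 without reagent alone 3 and 0.19 without reagent alone 2. It was 0.05 without untreated control 1. At the unadjusted level, 1 gene was higher without reagent alone 1 (1.32%, against 2.43% of all genes), 10 without reagent alone 2 (13.2%, against 2.18%), 2 without reagent alone 3 (2.63%, against 3.41%) and 3 without untreated control 1 (3.95%, against 2.11%). Without untreated control 2, 22 were higher (28.9%, against 14%) and 3 lower (3.95%, against 13%). The median was 0.10 for the small subunit, 0.09 for the large subunit and -0.08 for the stalk, and 69 of 76 intervals (90.8%, against 53.7%) lay within 2-fold. Libraries did not overlap for 3 genes, RPS29 and RPSA among them, all higher with reagent alone (3.95%, against 6.92% of all genes; 0 lower, against 7.21%).

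Among the 5 genes were RPS29, RPSA, RPL35A and RPL21. RPSA, a small-subunit protein also known as the precursor of a laminin receptor, measured 634, 778 and 644 CPM with DPPA3 mRNA and 809, 752 and 710 CPM after reagent alone, against 432, 685 and 560 CPM in untreated controls. The lowest reagent-alone library was above the highest untreated one, and the DPPA3 mRNA libraries overlapped both groups. Its log2 fold change for reagent alone against untreated control was 0.44 ± 0.17 (SE; 95% interval 0.07 to 0.80; adjusted p = 0.466 in edgeR), and 0.29 without untreated control 1. RPL35A, mutated in some human Diamond-Blackfan anaemia, a failure of red cell formation, stood at 0.69 ± 0.27 and at 0.40 without untreated control 1, and RPL21 at 0.44 ± 0.20 and 0.28 without it.

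**Figure D2:**
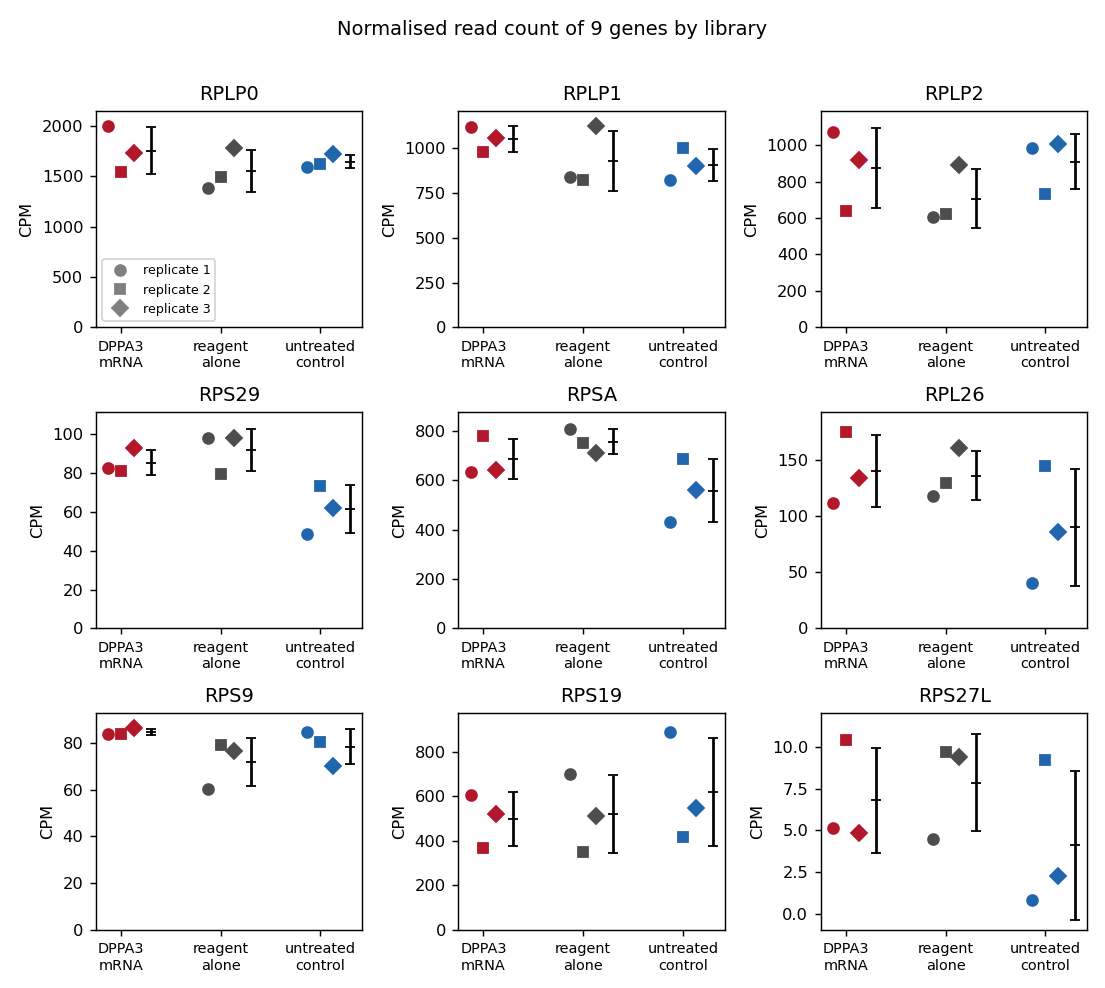
CPM on scaled library sizes of 9 genes in each library, with symbols for replicate numbers and bars for the group mean ± SD (n = 3). RPS29 is lower in all 3 untreated controls than in any treated library, RPS9 is higher in DPPA3 mRNA than in reagent alone, and for RPL26, RPSA and RPS27L untreated control 1 is the lowest library.

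**Figure D3:**
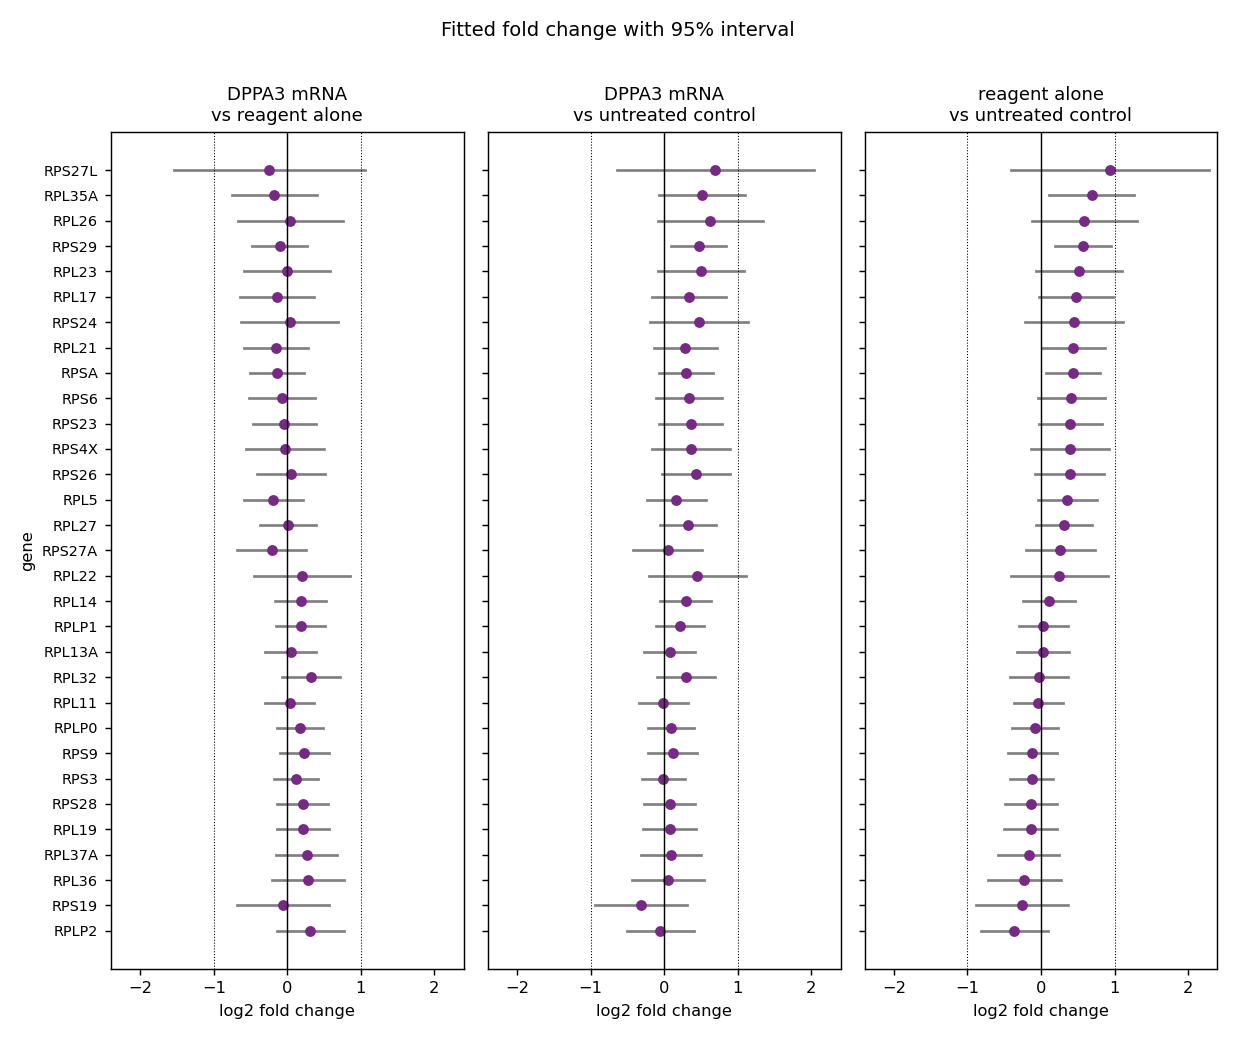
Fitted log2 fold change (points) with 95% interval (lines) of 31 named genes in the 3 comparisons; dotted lines mark 2-fold. Intervals narrower than 2-fold either way are the rule, and RPS27L has the widest, from -1.55 to 1.05 in DPPA3 mRNA against reagent alone.

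Genes with further known roles gave the following values. RPS3, at the mRNA entry channel, was among the steadiest, at 736, 576 and 683 CPM with DPPA3 mRNA, 606, 585 and 650 CPM after reagent alone, and 678, 628 and 707 CPM in untreated controls. The groups overlapped, and the fold changes of RPS3 were 0.12, -0.01 and -0.13 on the log2 scale in the comparisons of DPPA3 mRNA with reagent alone, of DPPA3 mRNA with untreated cells and of reagent alone with untreated cells. RPS6, the target of the S6 kinases, measured 567, 578 and 558 CPM with DPPA3 mRNA, 631, 572 and 593 CPM after reagent alone, and 298, 627 and 424 CPM in untreated controls. The treated groups of RPS6 lay close together, and untreated control 2 lay within their range. RPL5 and RPL11 bind 5S ribosomal RNA and, when free, hold back MDM2, the ligase that degrades p53. RPL5 measured 570, 577 and 599 CPM with DPPA3 mRNA, 756, 533 and 705 CPM after reagent alone, and 377, 611 and 569 CPM in untreated controls. RPL11 measured 530, 437 and 503 CPM with DPPA3 mRNA, 522, 385 and 533 CPM after reagent alone, and 522, 463 and 494 CPM in untreated controls. Both genes overlapped between all groups, and untreated control 1 was low for RPL5 but not for RPL11.

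RPL13A can leave the ribosome to silence inflammatory mRNAs in human myeloid cells. It measured 1674, 1142 and 1523 CPM with DPPA3 mRNA, 1465, 1172 and 1564 CPM after reagent alone, and 1358, 1419 and 1349 CPM in untreated controls. The second library was the lowest in both treated groups, and the untreated controls lay inside their range. RPS27A is made as a fusion to ubiquitin and measured 168, 140 and 198 CPM with DPPA3 mRNA, 263, 131 and 193 CPM after reagent alone, and 162, 170 and 157 CPM in untreated controls. RPL22, known also for binding a viral RNA in human cells, measured 28.3, 22.4 and 45.8 CPM with DPPA3 mRNA, 31.1, 20.7 and 32.4 CPM after reagent alone, and 15.5, 23.9 and 30.8 CPM in untreated controls. Neither RPS27A nor RPL22 had separate groups.

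Human Diamond-Blackfan anaemia genes did not share one pattern. RPS19, the one most often mutated, measured 608, 366 and 521 CPM with DPPA3 mRNA, 700, 348 and 511 CPM after reagent alone, and 892, 419 and 549 CPM in untreated controls. In every group of RPS19 the first library was the highest and the second the lowest. Its log2 fold change of DPPA3 mRNA over untreated control was -0.31 ± 0.29 (SE; 95% interval -0.94 to 0.31), the lowest of the set, and 0.05 without untreated control 1. RPS24 measured 153, 165 and 159 CPM with DPPA3 mRNA, 135, 133 and 197 CPM after reagent alone, and 51.6, 167 and 122 CPM in untreated controls. RPL26, whose product binds p53 mRNA in human cells, measured 112, 175 and 134 CPM with DPPA3 mRNA, 119, 130 and 161 CPM after reagent alone, and 40.6, 145 and 86.0 CPM in untreated controls. In both genes untreated control 1 lay far under every other library, while untreated control 2 was among the higher ones. The fold change of RPL26 over untreated control was 0.63 with DPPA3 mRNA and 0.59 with reagent alone on the log2 scale, and 0.29 and 0.26 without untreated control 1.

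The libraries differed from each other more than the groups did, and untreated control 1 differed most. For each gene, the log2 CPM of a library was set against its mean over the 9 libraries. The SD of this deviation over the 76 genes was 0.61 in untreated control 1, against 0.12 to 0.26 in the others. The 78 mitochondrial ribosomal protein genes gave 0.81 in the same library and the 36 initiation factor genes 0.61, so the wider scatter was not limited to the cytosolic set. Untreated control 1 was the lowest library for 32 of 76 genes (42.1%, against 31.5% of 14231 genes with counts in every library). It was the highest for 16 (21.1%, against 28.8% of all 14874 genes tested). Its scaling factor was 0.856, against 1.001 to 1.05 in the others. Reagent alone 2 was the lowest library for 30 genes (39.5%, against 11.0% of the 14231 genes), with a median deviation of -0.22.

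**Figure D4:**
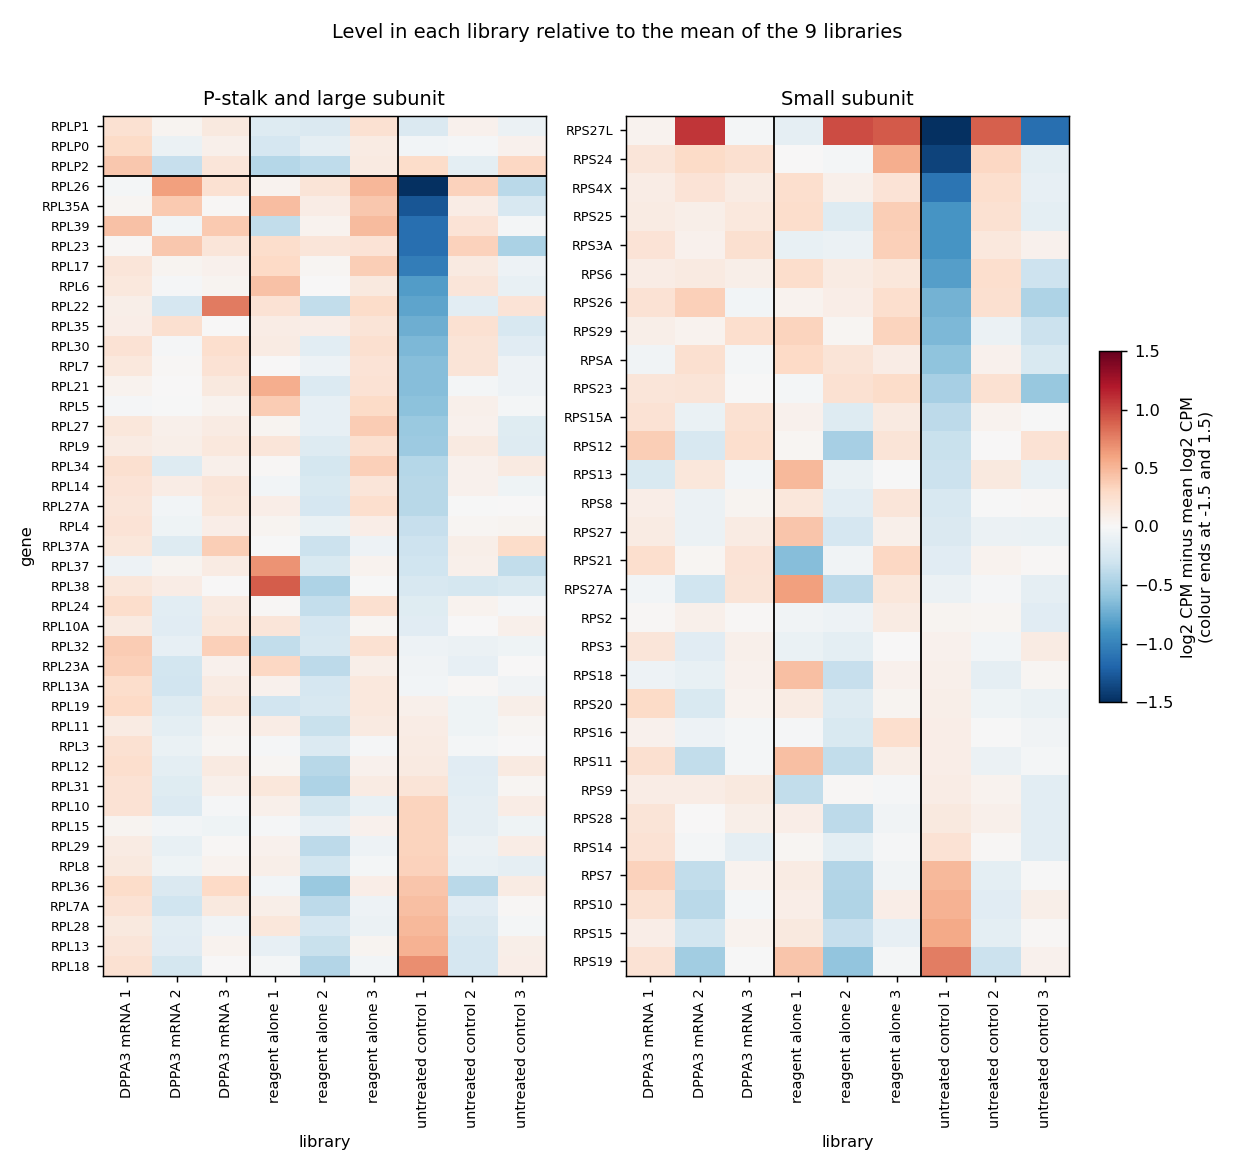
Log2 CPM minus the gene's mean over the 9 libraries, for 73 of the 76 genes, sorted within the stalk, the large and the small subunit by the value in untreated control 1; colours end at -1.5 and 1.5. The column of untreated control 1 runs from deep blue to red, from -2.62 for RPS27L to 0.77 for RPS19, while the columns of the other libraries are paler.

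The deviation of untreated control 1 split the set. Its 10 lowest genes against the mean of the other 8 libraries, among them RPS27L, RPL26, RPS24, RPL35A, RPL39 and RPL23, had a median of -1.36. Its 10 highest, among them RPS19, RPL18, RPS15, RPS10, RPL13 and RPS7, had a median of 0.57. The choice used these values, so no test is given. In untreated control 3 the first 10 genes also lay low, with a median of -0.36 and 0 of 10 above the mean, while in untreated control 2 their median was 0.12 and 9 of 10 were above it. The other 10 genes were under the mean in every one of 10 cases in DPPA3 mRNA 2, reagent alone 2 and untreated control 2, with medians of -0.19, -0.35 and -0.14. They were above it in 10 of 10 cases in DPPA3 mRNA 1, DPPA3 mRNA 3 and untreated control 3. Against the mean of all 9 libraries, the median of the 76 genes was -0.07 in DPPA3 mRNA 2 and -0.22 in reagent alone 2. It was 0.01 in untreated control 2 and -0.04 in untreated control 3, and 0.18 and 0.08 in DPPA3 mRNA 1 and 3. The whole set thus also lay low in reagent alone 2.

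The low 10 genes had a median log2 change of 0.49 with DPPA3 mRNA and 0.49 with reagent alone against untreated control. Without untreated control 1 these medians were 0.18 and 0.22. The high 10 genes had medians of -0.14 and -0.25, and 0.09 and -0.02 without that library. Between DPPA3 mRNA and reagent alone, where untreated control 1 enters only through the filter, the scaling and the estimate of spread, the medians were -0.04 and 0.08. RPS2, RPS3 and RPL3 were the steadiest genes over the 9 libraries, with SDs of log2 CPM of 0.086, 0.12 and 0.12. RPS27L at 1.22 and RPL26 at 0.64 were the most variable, and both were lowest in untreated control 1.

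**Figure D5:**
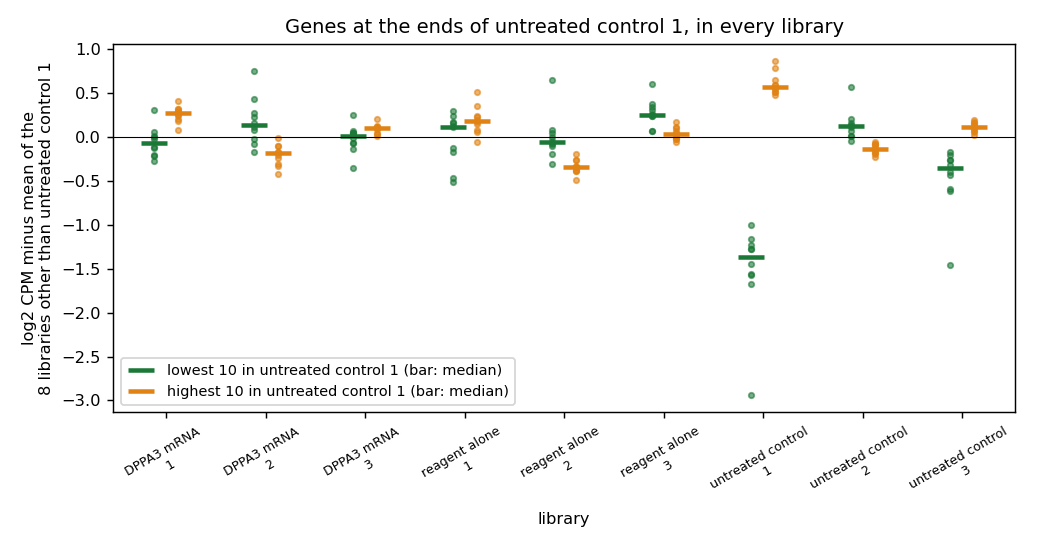
Log2 CPM minus the mean of the 8 libraries other than untreated control 1, for the 10 genes lowest (green) and the 10 highest (orange) in that library; points are genes and bars medians. The medians are -1.36 and 0.57 in untreated control 1, where the genes were chosen, and between -0.36 and 0.26 in every other library.

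Some genes that encode ribosomal proteins fall outside the naming rule. FAU, which encodes a ubiquitin-like protein fused to a small-subunit protein, measured 866, 824 and 846 CPM with DPPA3 mRNA, 775, 755 and 863 CPM after reagent alone, and 670, 824 and 792 CPM in untreated controls. Its groups overlapped, and edgeR called it in no comparison. RPL41 was not analysed here.

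The rest of the translation machinery was described from lists of named genes. Of 36 initiation factor genes, 13 elongation and termination factor genes, 72 ribosome biogenesis genes and 78 mitochondrial ribosomal protein genes, edgeR called 0 in each comparison. The same held for 11 RNA polymerase I genes, 31 genes of growth control and 11 other genes with the pyrimidine tract. Of all genes, 0.00672% were called between DPPA3 mRNA and reagent alone, and 0.0134% between DPPA3 mRNA and untreated control. The share was 0.0% between reagent alone and untreated control, so 0 calls in lists of this size say little about them. Initiation factor genes had a median of -0.05 between DPPA3 mRNA and reagent alone, 0.13 between DPPA3 mRNA and untreated control, and 0.22 between reagent alone and untreated control. Ribosome biogenesis genes gave 0.01, 0.14 and 0.14 in the same order of comparisons, and growth control genes 0.07, -0.15 and -0.21. Without untreated control 1, the medians of DPPA3 mRNA and of reagent alone over untreated control were 0.04 and 0.10 for initiation factors, 0.03 and 0.01 for ribosome biogenesis, and -0.02 and -0.08 for growth control. The median over all genes was within 0.01 of 0 in each.

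EIF4E, the cap-binding initiation factor, measured 15.5, 28.4 and 19.9 CPM with DPPA3 mRNA, 26.9, 26.7 and 28.1 CPM after reagent alone, and 8.06, 17.8 and 16.2 CPM in untreated controls. Its reagent-alone libraries lay above all untreated ones (log2 fold change 0.95 ± 0.30, SE; adjusted p = 0.466 in edgeR; 0.69 without untreated control 1). EIF4EBP1, which holds EIF4E back, measured 15.0, 17.1 and 14.2 CPM with DPPA3 mRNA, 9.21, 12.7 and 10.7 CPM after reagent alone, and 29.8, 14.5 and 14.6 CPM in untreated controls (-0.83 ± 0.29 for reagent alone against untreated control; adjusted p = 0.466). Untreated control 1 was the high library for EIF4EBP1, and the value was -0.39 without it. DDX10, a helicase of ribosome assembly, measured 41.5, 37.1 and 36.2 CPM with DPPA3 mRNA, 42.6, 43.8 and 40.2 CPM after reagent alone, and 22.9, 30.9 and 25.6 CPM in untreated controls. Both treated groups of DDX10 lay above the untreated one, at 0.53 ± 0.18 and 0.67 ± 0.18 with adjusted p = 0.852 and 0.466 in edgeR. MRPL28, of the mitochondrial ribosome, measured 18.1, 13.3 and 13.2 CPM with DPPA3 mRNA, 4.73, 10.2 and 8.51 CPM after reagent alone, and 21.1, 19.1 and 15.7 CPM in untreated controls. Reagent alone was the low group for MRPL28, at -1.21 ± 0.28 against untreated control (adjusted p = 0.466) and with DPPA3 mRNA at 0.88 ± 0.28 against reagent alone (adjusted p = 0.9998).

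Counting limits apply to single genes. By RefSeq spans, 27 of the 78 genes hold 57 snoRNA genes, and 13 overlap another gene, among them RPL3, RPLP0, RPSA, RPS6 and RPS9. Ribosomal protein genes have many processed copies in mammalian genomes, and how reads shared with copies or overlapping genes were counted, and whether strand was used, is not stated in the labels or the file, which leaves single values uncertain to that extent.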

How the data were processed

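Per the labels' protocols, RNA was isolated with TRIzol, treated with DNase and turned into libraries with an IDT xGen kit. The authors deposited raw read counts per gene symbol for 9 libraries; Trimmomatic, HISAT2, HTSeq and edgeR are the tools in the submitters' processing notes. Their versions, the build, the annotation and the strand setting were not given in the sources used here. Coordinates are therefore left out.

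Counts were tested as deposited with edgeR 4.0.16 (R 4.3.3): low-count filter by group, TMM scaling, 3 groups fitted together, quasi-likelihood test, two-sided, Benjamini-Hochberg over 14874 genes, threshold 0.05. CPM values use the scaled library sizes, except averages of single cell-type markers over all libraries, which use the library totals. SE is the size of the log2 fold change divided by the root of F, and the 95% intervals use the fit's degrees of freedom. Totals of 3890134 to 13258036 counts set the precision, and 3 counts equalled at most 0.747 CPM. The common biological coefficient of variation was 0.255. Replicates of a group differed beyond sampling noise (chi-square per degree of freedom of 13.8 or more). The scripts were tested on simulated data.

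Alternatives were DESeq2 1.42.0 (test and size factors), no low-count filter, a replicate block, pairwise fits, scaling without these genes, DPPA3 left out, each library left out, other totals and, chosen after seeing the data, limma 3.58.1 voom with quality weights and untreated control 1 left out with reagent alone 1. Between DPPA3 mRNA and untreated control, same-numbered deviations from group means correlated at 0.338, 0.320 and 0.125, all over a set limit of 0.1. The other comparisons did not meet this limit. Libraries of different number were not compared, so these values cannot show that the libraries were paired. The labels state no pairing, and the main fit used no replicate block.

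Genes and lists were chosen with earlier results of these data known. Named were the stalk genes, RPSA, RPS3, relatives ending in L, X or Y, 9 genes of known role, up to 8 genes with the smallest p per comparison, filtered genes, and up to 3 genes of each other list. Genes named for steadiness, read share, separate groups or the ends of untreated control 1, and FAU, were chosen after their values were seen. A rule by CPM per coding length could not be applied, since lengths were not at hand. Symbols were matched to a RefSeq table of ARS-UCD2.0 (all 78; 24552 of 30641 overall), used for overlaps only. Values of some single genes are not reported here.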

Additional observations from a re-analysis of the deposited data

How the results depend on the processing

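None of the 18 alternative fits called a gene of the set, and the smallest adjusted p over them was 0.809 between DPPA3 mRNA and reagent alone, 0.153 between DPPA3 mRNA and untreated control, and 0.0556 between reagent alone and untreated control. With single libraries left out, the median log2 fold change ran between -0.04 (without reagent alone 2) and 0.13 (without DPPA3 mRNA 2), between 0.08 and 0.21, and between 0.00 (without reagent alone 3) and 0.19 (without reagent alone 2) in these comparisons. Counts at an unadjusted p under 0.05 moved most without untreated control 2, with 22 genes higher with DPPA3 mRNA (28.9%, against 10.5% of all genes) and 22 higher (28.9%, against 14%) and 3 lower (3.95%, against 13%) with reagent alone, both against untreated control. With limma voom, 19 were higher with DPPA3 mRNA (25%, against 9.08%), and 16 higher (21.1%, against 14%) and 3 lower (3.95%, against 12.2%) with reagent alone. Without the low-count filter, 11 were higher with DPPA3 mRNA (14.1%, against 3.14%), and 18 higher (23.1%, against 5.85%) and 2 lower (2.56%, against 5.52%) with reagent alone. The replicate block gave medians of 0.05, 0.11 and 0.06, 2 genes higher with DPPA3 mRNA than after reagent alone (2.63%, against 1.69%), and 12 higher (15.8%, against 10.5%) and 3 lower (3.95%, against 9.13%) for reagent alone against untreated control, with 0 called. For reagent alone against untreated control, the same-numbered correlations were 0.153, 0.143 and 0.0935, which cannot show pairing either. The sign of the share difference between DPPA3 mRNA and reagent alone depended on which library was left out. The difference was 0.0293 percentage points with all libraries. With single libraries left out, it ran from -0.199 (without reagent alone 2) to 0.181 (without DPPA3 mRNA 2). Of 32 named genes, 13, 12 and 9 changed sign under some alternative in the 3 comparisons. The causes were not tested. Depth limits RPS27L, RPL3L and RPL10L most.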
